A study of Mus musculus with 4 samples.

Results

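The cells described here are early mesoderm cells that carried transcripts of the caudal homeobox genes Cdx1 or Cdx4. They were selected on their own raw counts of unique molecular identifiers (UMIs, each standing for 1 captured RNA molecule): 2 or more UMIs of Cdx1 plus Cdx4, none of Tbx4, none of Cdh5, and not both 2 or more of Meox1 and 1 or more of Tcf15. Only cells with 1000 or more detected genes and at most 10% mitochondrial UMIs were considered. The rule was met by 776 of 7577 retained cells in the E8.0 library and by 143 of 2954 in the E8.25 library, which gives 919 of 10531 cells of both early libraries and of 22625 retained cells in the series.

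All cells came from Swiss Webster embryos of the genotype Mesp1Cre;Rosa26-GFPflox/+, in which Cre made from the early mesoderm gene Mesp1 switches on GFP in the cells that expressed Mesp1 and in their descendants. Living GFP-positive cells were sorted from pooled embryos and run as 1 10x library per stage, from the upper part of the embryo (E8.0, E8.25) or from the pharyngeal apparatus and heart (E9.5, E10.5). There was no untreated or mutant group, Mesp1Cre marks only mesoderm that passed through Mesp1 expression, and pooled embryos of 1 library are not replicates. Stage, library, embryos and depth of sequencing therefore cannot be told apart, and no test between stages was possible. The differences between the selected cells and other cells describe cells chosen from the same counts, so no test was made of them either, and intervals given below (95%, exact) cover counting error only.

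Cdx1, Cdx2 and Cdx4 encode related homeodomain transcription factors of the posterior embryo, best known for driving Hox genes of the trunk and tail and for keeping the axis growing. Hox genes lie in 4 clusters, are numbered 1 to 13 by paralog group, and are switched on in that order, so that the highest group a cell expresses reflects its position along the body axis. In the posterior mesoderm of this age, Osr1 and Lhx1 mark intermediate and nearby lateral plate mesoderm, Foxf1, Hand1 and Hand2 mark lateral plate, and Tbx6 and Msgn1 mark presomitic mesoderm.

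The deposited tables held 7581 cells at E8.0 (median 21658 UMIs per cell) and 2956 at E8.25 (median 35461). Median UMIs were 23049.5 in selected and 21445 in other cells of the first library, and 42551 and 35058 in the second. Levels are given as CPM, the UMIs of a gene per 1000000 UMIs of the same cells, and since UMIs are counted at the 3′ end they are compared between cells and not between genes. E8.0 and E8.25 shared 41 cell barcodes and any pair of libraries between 16 and 88. Among the selected cells, erythroid-gated cells (5% or more of UMIs from Hba-x, Hbb-y and Hbb-bh1) numbered 0 at E8.0 and 1 at E8.25, and cardiomyocyte-gated cells (20 or more UMIs of Myl7 plus Tnnt2) 1 and 2. The 3 haemoglobin genes of the erythroid gate summed to 364 CPM in selected cells at E8.0 and 4151 at E8.25. Cells of a state that had few UMIs at E8.0, marked by a gene set not reported here, made up 30.4% of selected cells at E8.0 (median 11581.5 UMIs, against 25321.5 in the rest) and 10.49% at E8.25.

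At E8.0, 1488 cells had 2 or more UMIs of Cdx1 plus Cdx4. The Tbx4 clause removed 592 of them (39.8%), the Cdh5 clause applied to 34 and the somite clause to 127. At E8.25, 211 cells had 2 or more UMIs, none of them carried Tbx4, 12 carried Cdh5 and 59 met the somite clause. Tbx4 at this age marks the allantois and nearby posterior mesoderm, Cdh5 the endothelium, and Meox1 with Tcf15 the somites.

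Among selected cells, the count of Cdx1 plus Cdx4 had a median of 6 at E8.0 (quartiles 3 and 12, highest 49) and of 4 at E8.25 (quartiles 2 and 7, highest 35). Cells with exactly 2 UMIs made up 15.7% of the selected cells at E8.0 and 31.5% at E8.25, and cells with 10 or more made up 35.4% and 14%. Just outside the threshold, 891 cells at E8.0 and 204 at E8.25 had 1 UMI. At E8.0 the cells with 1 UMI had 33.1 CPM of Hoxb1 against 94.6 in selected cells with exactly 2, 21.6 of Hoxd1 against 58.6, and 49.1 of Cited1 against 115. Among cells gated as other lineages, 0 of 47 erythroid-gated and 5 of 410 cardiomyocyte-gated cells (1.22%) reached 2 UMIs at E8.0. At E8.25, 1 of 320 (0.312%) and 2 of 76 (2.63%) did. At least 1 UMI was found in 4.26% and 9.02% of these cells at E8.0 and in 5% and 9.21% at E8.25. How much background RNA added to the selected cells was not tested.

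The selected cells made up 10.2% of retained cells at E8.0 (9.57 to 10.9%) and 4.84% at E8.25 (4.10 to 5.68%), a log2 ratio of -1.08 (-1.33 to -0.83). The E8.25 library was deeper, which lets more cells reach 2 UMIs. Cells with 10000 or more UMIs, 6625 at E8.0 and 2929 at E8.25, were also thinned to 10000 UMIs before the rule was applied. The shares of these cells were then 9.43% and 1.74%, and the log2 ratio was -2.44. Thinning lowers the counts of Tbx4, Cdh5, Meox1 and Tcf15 too, and how many cells entered through that was not tested. The share of a sorted and dissected sample also depends on where the embryo was cut and on the sort, and their part in this difference was not tested.

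The rule genes themselves stood as follows. Cdx1 was at 170 CPM (164 to 176) in selected cells and 10.1 in other cells at E8.0, and at 100 (92.4 to 108) and 4.17 at E8.25. Cdx4 was at 210 (204 to 217) and 25.7 at E8.0, and at 36.3 (31.7 to 41.4) and 0.404 at E8.25. The excess of both follows from the rule. Cdx2, which the rule did not use, was at 158 (153 to 164) in selected cells against 49.5 in other cells at E8.0 and at 41.9 (37.0 to 47.4) against 1.41 at E8.25. The Cdx2 of other cells at E8.0 was in part that of the Tbx4-positive Cdx cells left out by the rule, which held 221 CPM, more than the selected cells.

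The makeup of Cdx transcripts differed between the stages, in cells selected on raw counts at unlike depth. In cells thinned to 10000 UMIs, all 3 genes were detected together in 224 of 689 selected cells at E8.0 (32.5%, 29.0 to 36.2%) and in 12 of 143 at E8.25 (8.39%, 4.41 to 14.2%). Cdx1 as the only Cdx transcript was found in 19.9% of cells at E8.0 and in 44.8% at E8.25. Cdx2 was detected in 58.9% of selected cells at E8.0 and 20.3% at E8.25, against 21.1% and 1.11% of other cells and 4.44% and 0% of erythroid-gated cells. In raw counts, which include the deeper sequencing of the E8.25 cells, Cdx2 was detected in 72.7% and 39.9% of selected cells and Cdx4 in 71.1% and 29.4%.

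Of the 5 genes that name these cells, Cdx1 and Cdx4 were higher by the rule itself. The others, Hoxb1, Hoxd1 and Cited1, were also higher at both stages. Hoxb1, a group 1 Hox gene also used as a mark of posterior second heart field, was at 89.4 CPM (85.0 to 93.8) against 24.7 in other cells at E8.0 and at 72.3 (65.7 to 79.3) against 29.4 at E8.25. Hoxd1 was at 102 (97.3 to 107) against 18.0, and at 66.9 (60.7 to 73.7) against 8.92. Cited1, a transcriptional co-activator of the CBP and p300 binding family, was at 253 (246 to 261) against 45.6 at E8.0 and at 76.1 (69.4 to 83.3) against 23.8 at E8.25. Hoxb1, Hoxd1 and Cited1 were detected in 52.4%, 51.2% and 73.1% of thinned selected cells at E8.0, where erythroid-gated cells gave 0%, 0% and 6.67%.

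**Figure D1:**
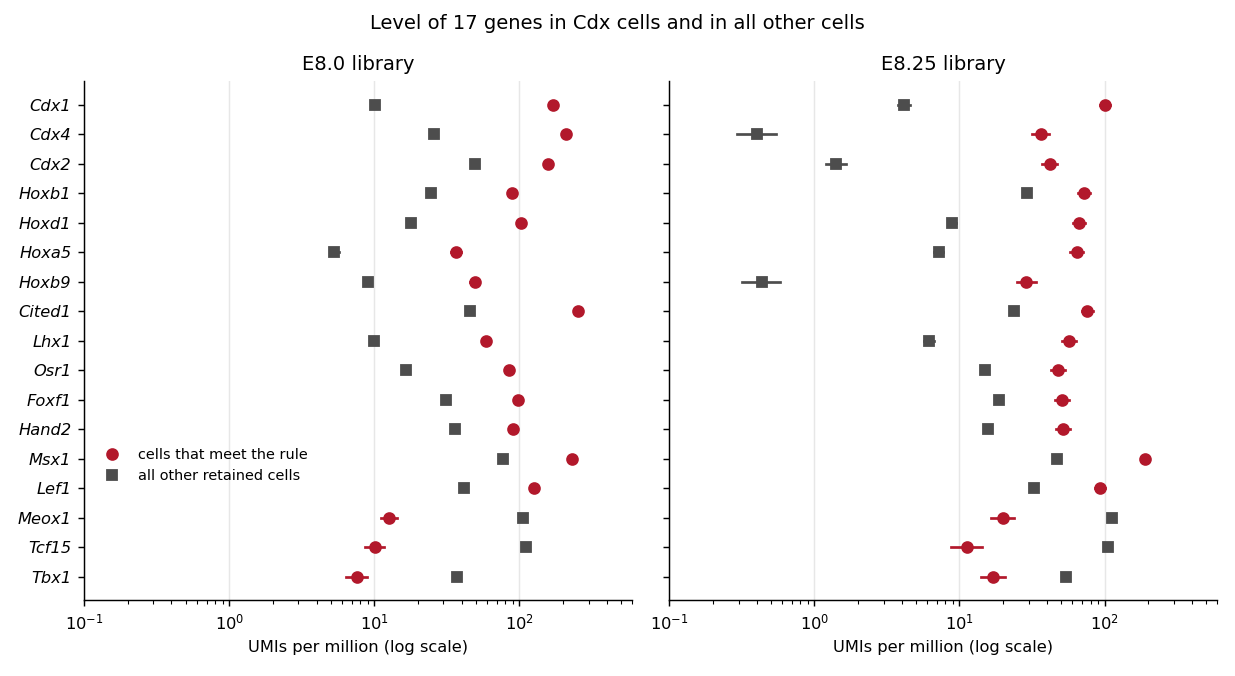
Level of 17 genes in CPM (log axis) in the E8.0 and E8.25 libraries, for cells that met the rule (circles) and all other retained cells (squares), with 95% exact Poisson intervals as lines where wider than the symbol. The Cdx, Hox, Cited1, Lhx1, Osr1, Foxf1, Hand2, Msx1 and Lef1 circles lie to the right of the squares in both libraries, and Meox1, Tcf15 and Tbx1 lie to the left.

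Across all genes, 4970 had 20 or more CPM in the selected cells of both libraries or in the other cells of both. Of these, 39 (0.785%) were 2-fold or more higher in the selected cells in both libraries and 68 (1.37%) were 2-fold or more lower, on a log2 scale with 1 CPM added. The median log2 ratio over all genes compared was 0.04 at E8.0 and 0.10 at E8.25, so the scale was close to level. As the same counts chose the cells, these shares are given as background for the gene lists that follow, and nothing is read from them. A gene could enter through selected cells alone or through other cells alone. The counts and medians of the lists below are therefore in part set by this limit. With erythroid-gated, Cdh5-positive and cardiomyocyte-gated cells left out of the other cells, 29 of the 39 were still 2-fold or more higher in both libraries, and Hoxb4, Hoxb6, Msx2, Tcf7 and Tbx3 were among those that were not.

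With the rule genes left out, the 15 genes with the highest ratio in both libraries were Hoxb5os, Hoxaas3, Hoxa5, Lhx1, Hoxd1, Hoxb9, Naaa, Hoxb8, Hoxd4, Cdx2, Cited1, Osr1, Msx1, Arl4c and Lef1. Hoxa5 was at 36.6 CPM against 5.30 at E8.0 and at 64.4 against 7.22 at E8.25, log2 ratios of 2.58 and 2.99. The antisense transcript Hoxb5os was at 46.3 against 4.58 and at 54.4 against 3.07, and Hoxaas3, from the HoxA cluster, at 172 against 23.9 and at 99.0 against 2.93. Whether the counting separated the strands is not given in the sources used here, so reads of these transcripts and of the Hox genes they overlap may not be cleanly divided. Naaa, which encodes an acid amidase, was at 29.6 against 6.01 and at 23.9 against 3.15.

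**Figure D2:**
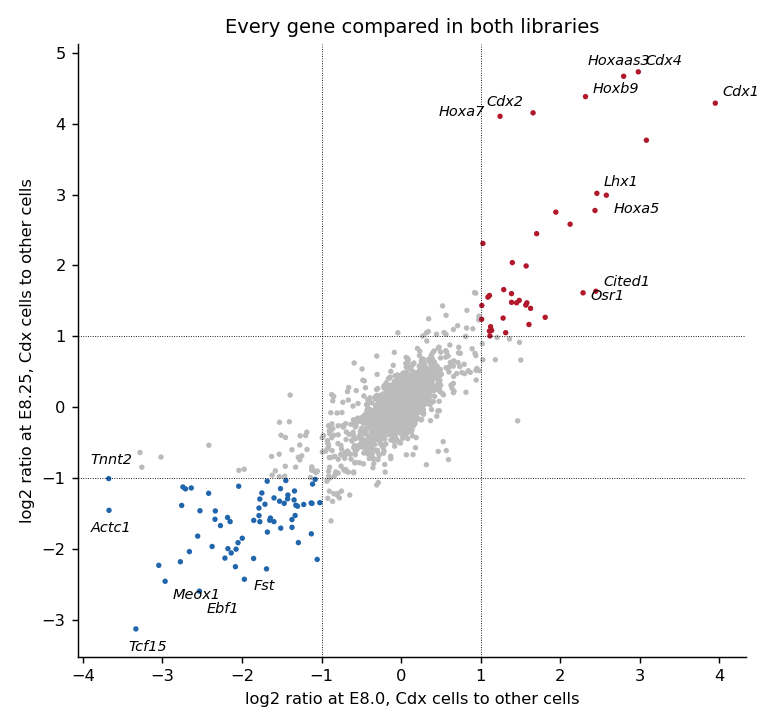
Each point is 1 of the 4970 genes compared, placed by its log2 ratio of selected to other cells at E8.0 (horizontal) and E8.25 (vertical), with dotted lines at 2-fold. Red marks the 39 genes higher and blue the 68 genes lower by 2-fold or more in both libraries, and Cdx1, Cdx4, Hoxaas3, Hoxa5 and Lhx1 lie toward the upper right.

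Of the 39 Hox genes, 11 were abundant enough to compare in this way, and 10 of them were 2-fold or more higher in both libraries and 0 lower. Their median log2 ratio was 1.70 at E8.0 and 2.45 at E8.25, beside 0.04 and 0.10 over all genes. Hoxa5, Hoxa7, Hoxb1, Hoxb4, Hoxb6, Hoxb8, Hoxb9, Hoxd1 and Hoxd4 were among the 10, which came from groups 1 and 4 to 9. The genes compared had to be abundant in 1 of the groups of cells, so these counts and medians describe them and not all Hox genes. Hoxa5, Hoxb8, Hoxb9, Hoxd1 and Hoxd4 were among those that reached 20 CPM only in selected cells. For such genes a higher ratio was in part set by that limit, and nothing is read from the count or the medians. Of all 39, 28 were at a higher level in selected than in other cells at E8.0 and 27 at E8.25, while 2 had no UMI in selected cells at E8.0 and 12 at E8.25.

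The Hox profile summed by paralog group differed between the stages, most in its posterior groups. The rule used raw counts and the E8.25 cells were deeper, so the selected cells were not matched for Cdx level. In cells with exactly 2 UMIs of Cdx1 plus Cdx4, group 9 was at 62.0 CPM at E8.0 and 7.58 at E8.25. It was at 82.1 and 11.6 with 3 to 5 UMIs, 153 and 43.6 with 6 to 10, and 292 and 265 with 11 or more. These classes of raw counts were not matched for Cdx level either. With exactly 2 UMIs, Cdx1 was at 64.6 CPM at E8.0 and 48.2 at E8.25, Cdx4 at 27.0 and 0.541, and Cdx2 at 56.3 and 8.66. Group 1 was at 277 CPM (270 to 285) in selected cells at E8.0 and 221 (209 to 233) at E8.25, against 57.2 and 65.7 in cells with no Cdx1 or Cdx4 UMI. Groups 8 and 9 at E8.0 were at 149 (143 to 155) and 172 (166 to 178), and at E8.25 at 50.3 (44.9 to 56.2) and 48.9 (43.5 to 54.7). They were also lower at E8.25 in cells with no Cdx1 or Cdx4 UMI, at 21.6 and 41.4 at E8.0 and 4.67 and 1.01 at E8.25. Groups 4 and 5 were at 90.2 (85.8 to 94.7) and 66.2 (62.4 to 70.0) at E8.0 and at 116 (108 to 125) and 93.2 (85.8 to 101) at E8.25, the opposite direction. Groups 10 to 13 had 1 UMI in all among selected cells at E8.25.

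Single Hox genes followed the same division. Hoxd9 was at 57.1 CPM at E8.0 and 10.3 at E8.25, Hoxc8 at 76.1 and 17.4, and Hoxa9 at 34.6 and 5.0. Hoxb9 was the exception among group 9 genes, at 49.2 and 28.9, a log2 ratio of -0.75. Hoxa5 was at 36.6 and 64.4, Hoxc4 at 19.3 (17.3 to 21.4) and 34.2 (29.7 to 39.1), Hoxd4 at 28.5 and 37.4, and Hoxc5 at 4.91 and 11.6. Hoxa5, Hoxc4 and Hoxd4 stayed under 2-fold, and Hoxc5 was below the 20 CPM needed for comparison.

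Counted per cell at 10000 UMIs, the most posterior paralog group detected had a median of 9 in selected cells at E8.0 and of 5 at E8.25. Group 9 or higher was detected in 378 of 689 cells (54.9%, 51.1 to 58.6%) at E8.0 and in 32 of 143 (22.4%, 15.8 to 30.1%) at E8.25. Group 4 or 5 was the most posterior in 20.03% and 46.9%. Erythroid-gated cells gave 0 of 45 and 0 of 319 with group 9 or higher.

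**Figure D3:**
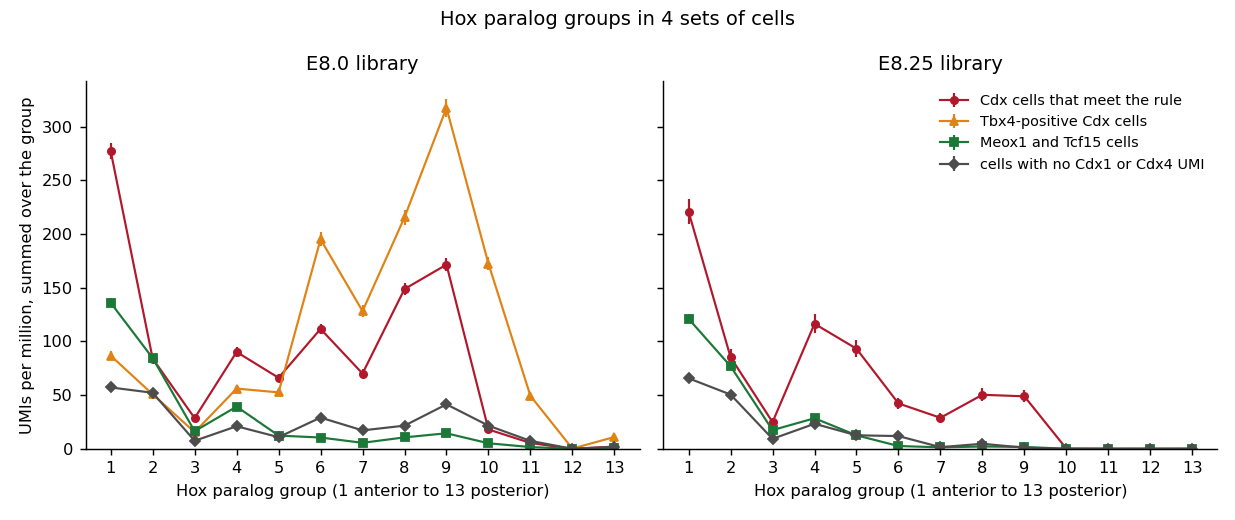
CPM summed over each Hox paralog group, with 95% exact Poisson intervals, in the E8.0 and E8.25 libraries for selected cells, Tbx4-positive Cdx cells (E8.0 only), Meox1 and Tcf15 cells, and cells with no Cdx1 or Cdx4 UMI. Selected cells run above the somite-gated cells in groups 1 and 4 to 9 in both libraries, and the Tbx4-positive cells run above the selected cells in groups 6 to 11.

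The largest set of Cdx cells that the rule left out at E8.0 was the 592 Tbx4-positive cells with 2 or more UMIs of Cdx1 plus Cdx4. Their Hox profile lay farther toward the posterior end, with group 9 at 318 CPM (309 to 326) against 172 in selected cells and group 10 at 172 (166 to 179) against 18.0. Group 10 or higher was detected in 81.9% of them and in 14.9% of selected cells. Cdx1 was lower in them, at 31.5, and Cdx4 was close, at 195. Lhx1 was at 5.58 against 59.2, and Hoxb1 at 12.6 against 89.4. Phlda2, which is abundant in extraembryonic tissue, was at 3801 in the Tbx4-positive cells and 1342 in selected cells. In the somite-gated cells (1201 at E8.0 and 750 at E8.25), groups 1 and 2 were present and group 9 was at 14.5 and 1.72. Of these, 127 and 59 had 2 or more UMIs of Cdx1 plus Cdx4. In them group 1 was at 208 and 177 CPM, against 277 and 221 in selected cells. Group 4 was close to selected cells, at 89.5 and 102 against 90.2 and 116. Group 9 was at 53.8 and 12.9, against 172 and 48.9.

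Cdx proteins bind AT-rich sites of the kind TTTATG, and for that reason the 300-base promoter windows of RefSeq (GRCm38.p6, 250 bases before to 50 after each gene start) were searched for TTTATG on either strand. The windows matched 22 of the 39 Hox genes, in 24 windows, of which 5 (20.8%) held the motif, against 3893 of 32851 windows of all genes (11.9%). Those windows belonged to Hoxd11, Hoxd3, Hoxd4, Hoxa7 and Hoxb8. Because Hoxa7, Hoxb8 and Hoxd4 were among the 10 genes above, the stretch around 1 match in each is printed 5′ to 3′ on the strand of the gene, with the motif in capitals. The match is a description of letters, not a known binding site.
Hoxa7, chr6:52218732-52218755, minus strand: cctgagcagTTTATGaggcgttta
Hoxb8, chr11:96281739-96281762, plus strand: ctaacagctTTTATGcgctgcagc
Hoxd4, chr2:74721924-74721947, plus strand: caaaggttaTTTATGgttctgcag

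Some lateral plate and intermediate mesoderm genes were higher. Lhx1 was at 59.2 CPM (55.7 to 62.8) against 9.93 at E8.0 and at 56.9 (51.2 to 63.2) against 6.15 at E8.25. Osr1 was at 84.6 (80.4 to 89.0) against 16.5, and at 47.9 (42.6 to 53.7) against 14.98. Both were present in a minority of cells: at E8.0 Lhx1 was detected in 37.0% and Osr1 in 48.5% of thinned selected cells, against 7.09% and 9.96% of other cells and 2.22% and 4.44% of erythroid-gated cells. Of the 6 genes of the intermediate mesoderm list, only these 2 were abundant enough to compare, and both reached 20 CPM only in selected cells. The kidney regulators Pax2 and Pax8 were at 0.725 and 0.167 at E8.0 and at 0.806 and 1.77 at E8.25.

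Of 12 lateral plate genes, 9 were compared, and 3 were 2-fold or more higher in both libraries (Foxf1, Hand2 and Msx2) and 0 lower. Msx2 was no longer called with the blood, endothelial and heart cells left out of the comparison. Their median log2 ratio was 0.71 at E8.0 and 0.76 at E8.25. Foxf1, a forkhead factor of splanchnic mesoderm, was at 98.0 against 31.0 and at 51.0 against 18.8. Hand1 went in opposite directions, at 184 (177 to 190) against 133 at E8.0 and at 38.7 (34.0 to 43.9) against 60.2 at E8.25. Tbx20, a cardiac and lateral plate factor, was lower at both stages, at 17.4 against 63.6 and at 2.42 against 5.10. The homeobox gene Msx1, a target of Bmp signalling, was at 232 (225 to 239) against 77.4 and at 191 (180 to 202) against 47.1.

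Of 6 posterior second heart field genes, 5 were compared and 3 were higher in both libraries (Hoxb1, Foxf1 and Osr1) and 0 lower, at median log2 ratios of 1.63 and 1.27. Of 6 anterior second heart field genes, 3 were compared, 0 were higher and 1, Tbx1, was lower, with log2 ratios of -2.15 at E8.0 and -1.61 at E8.25.

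Scored per thinned cell as 3 or more UMIs from 2 or more genes of a list, the lateral plate list was on in 573 of 689 selected cells at E8.0 (83.2%, 80.2 to 85.9%) and in 91 of 143 at E8.25 (63.6%), against 49.9% and 26.3% of other cells and 0% of erythroid-gated cells. The intermediate mesoderm list was on in 20.9% and 12.6%, against 2.22% and 1.94%. At E8.0, 118 of the 144 cells with the intermediate list on also had the lateral plate list on, and at E8.25, 7 of 18. Neither list was on in 13.1% and 28.7%.

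Tailbud genes were on in a minority of the cells and presomitic genes in few. The tailbud and primitive streak list was on in 142 of 689 thinned selected cells at E8.0 (20.6%, 17.6 to 23.8%) and in 13 of 143 at E8.25 (9.09%), against 10.4% and 6.68% of other cells. Of 10 tailbud and primitive streak genes, 3 were abundant enough to compare. Of these, 0 were 2-fold higher in both libraries and 1, Cyp26a1, which encodes a retinoic acid-degrading enzyme, was lower. The median log2 ratio of the 3 was negative, at -0.90 at E8.0 and -0.33 at E8.25. Evx1, Nkx1-2 and T, given next, were too scarce at E8.25 to be among the 3. Their values describe these genes and not the list. Evx1, a homeobox gene of the primitive streak and tail, was at 26.7 CPM (24.3 to 29.2) against 5.62 at E8.0 and at 6.77 (4.88 to 9.16) against 0.702 at E8.25. Nkx1-2, expressed in axial progenitors, was at 23.7 against 6.49 and at 15.6 against 0.779. T (brachyury) was at 11.4 (9.87 to 13.1) against 2.70 and at 1.77 against 0.856. Tbx6 and Msgn1 were at 7.25 and 1.00 at E8.0 and at 0.645 and 0 at E8.25. The presomitic list was on in 6.82% of thinned selected cells at E8.0 and 2.10% at E8.25, against 1.55% and 0.574% of other cells. In raw counts, T was detected in 12.6% of selected cells at E8.0 and 4.20% at E8.25, Tbx6 in 7.99% and 0.699%, and Msgn1 in 1.68% and 0%.

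Somite genes were among the lowest. Of 10, 4 were compared and 3 were 2-fold or more lower in both libraries and 0 higher, at median log2 ratios of -2.51 and -2.18. Meox1 and Tcf15 follow from the rule, so the count and medians of this list are in part set by it. The rule also left all somite-gated cells among the other cells, and the comparison was not repeated without them. Against those other cells, Foxc2, which the rule did not use, was at 19.5 CPM against 83.7 at E8.0 and at 21.9 against 85.3 at E8.25. Tbx1, a T-box gene of pharyngeal and anterior second heart field mesoderm, was at 7.59 against 37.1 and at 17.1 against 54.4. Ebf1, a transcription factor of pharyngeal mesoderm, was at 9.93 against 62.3 at E8.0 and at 12.7 against 82.0 at E8.25.

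The 15 genes with the lowest ratio in both libraries included Ebf1, Cldn5, Hbb-y, Hba-x, Hba-a1, Anxa2, Cryab, Hbb-bh1, Fst, Ramp2, Foxc2, Chchd10, Cited4 and Mt1. Several belong to other lineages that stayed among the comparison cells. With erythroid-gated, Cdh5-positive and cardiomyocyte-gated cells left out of that comparison, 41 of the 68 genes were still 2-fold or more lower in both libraries. Hbb-y, Hba-x, Hba-a1, Hbb-bh1, Chchd10 and Cited4 then had positive log2 ratios at E8.25, between 0.18 and 0.81. The activin antagonist Fst, at 51.3 CPM against 204 at E8.0 and 41.9 against 230 at E8.25, and Foxc2 and Ebf1 remained among the 41.

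Of 15 Wnt genes, 8 were compared and 2, Lef1 and Tcf7, which encode the DNA-binding partners of beta-catenin, were 2-fold or more higher in both libraries and 0 lower. Tcf7 lost this call with the blood, endothelial and heart cells left out. Lef1 was at 126 CPM (121 to 132) against 41.6 at E8.0 and at 92.7 (85.3 to 101) against 32.8 at E8.25. Notum, a secreted Wnt inhibitor, was at 21.8 (19.6 to 24.0) against 1.95 at E8.0 and at 6.13 (4.34 to 8.41) against 2.52 at E8.25. Wnt5b was at 31.3 against 10.0 and at 15.3 against 4.66. Of 13 Bmp genes, 6 were compared and 2, Msx1 and Msx2, were higher and 0 lower, of which Msx2 lost its call in the same way. Bmp4 itself was at 77.3 against 40.1 and at 66.1 against 38.6, under 2-fold at both stages.

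Of 12 retinoic acid genes, 7 were compared, 0 were 2-fold higher in both libraries and 1, Cyp26a1, was lower, at 17.4 CPM against 45.6 and at 10.2 against 24.3. Aldh1a2, which encodes the main retinoic acid-making enzyme of trunk mesoderm, was at 84.2 against 71.0 and at 56.9 against 46.4, and was highest in the somite-gated cells, at 247 and 100. None of 3 Fgf genes, 1 Notch gene, 6 Hox cofactor genes, 12 S-phase genes and 12 G2/M-phase genes compared was 2-fold higher or lower in both libraries. The median log2 ratio of the S-phase list was 0.14 at E8.0 and 0.13 at E8.25, and of the G2/M list -0.02 and 0.05.

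Blood, endothelial and heart genes were lower, with 3 of 3 erythroid, 1 of 2 endothelial, 2 of 4 haematoendothelial and 2 of 5 cardiomyocyte genes compared being 2-fold or more lower in both libraries and none higher. The rule asked for no Cdh5 and so left all Cdh5-positive cells among the other cells, and the endothelial difference follows in part from it. Hba-x, Hbb-y, Hbb-bh1, Cldn5, Tal1, Lmo2, Tnnt2 and Actc1, the genes so called, all lost the call with erythroid-gated, Cdh5-positive and cardiomyocyte-gated cells left out of the other cells. The haematoendothelial list was on in 65 of 689 thinned selected cells at E8.0 (9.43%) and 9 of 143 at E8.25 (6.29%), against 24.3% and 18.8% of other cells. Etv2, the factor that starts the endothelial programme, was at 60.9 CPM against 163 and at 61.5 against 71.0. The neural list was on in 1 and 4 of the thinned cells and the endoderm and epithelium list in 5 and 0.

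The selected cells were not uniform, and Cdx2 separated them. At E8.0, 283 thinned cells had no Cdx2 UMI among 10000, 228 had 1 or 2 and 178 had 3 or more. The Hox group 9 sum was at 57.5 CPM (52.1 to 63.3), 175 (164 to 186) and 351 (333 to 369) in that order. At E8.25 the classes held 114, 22 and 7 cells, and the sum was at 19.97 (16.3 to 24.3), 104 (83.6 to 128) and 394 (325 to 474). Group 8 went the same way, at 49.1, 154 and 296 at E8.0 and 23.1, 106 and 363 at E8.25. The group 1 sum hardly moved at E8.0, at 268, 280 and 283. At E8.25 it was higher with more Cdx2, at 210 (198 to 223), 253 (220 to 289) and 310 (249 to 382). The intervals of the 7 cells with the most Cdx2 at E8.25 and of the 178 such cells at E8.0 overlapped.

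Other genes shifted with Cdx2 in either direction, and those given here were chosen after their values were seen. The rule gene Cdx4 rose with Cdx2, at 64.8, 226 and 423 CPM at E8.0 and at 14.4, 78.3 and 296 at E8.25. Phlda2, high in the Tbx4-positive Cdx cells, was at 1012, 1441 and 1712 at E8.0, and Pitx1 at 22.7, 58.5 and 89.2. Neither kept this order at E8.25, with Phlda2 at 399, 311 and 380 and Pitx1 at 4.35, 15.2 and 3.49. Evx1 was at 7.88, 24.8 and 61.7 CPM at E8.0 and at 2.57, 15.2 and 55.8 at E8.25. Mixl1, a primitive streak gene, was at 1.11, 4.64 and 23.7 at E8.0 and had no UMI in selected cells at E8.25. Lef1 was at 93.6, 135 and 166, and at 80.1, 136 and 188. In contrast, Lhx1 was at 83.6, 61.1 and 14.8 at E8.0 and at 62.5, 40.9 and 6.97 at E8.25, and Aldh1a2 at 137, 64.0 and 22.7 and at 65.8, 22.2 and 3.49. Meis1, a Hox cofactor, was at 91.1, 59.2 and 23.0, and at 96.3, 71.3 and 34.9. Osr1 showed no such order at E8.0, at 98.4, 72.6 and 82.7.

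**Figure D4:**
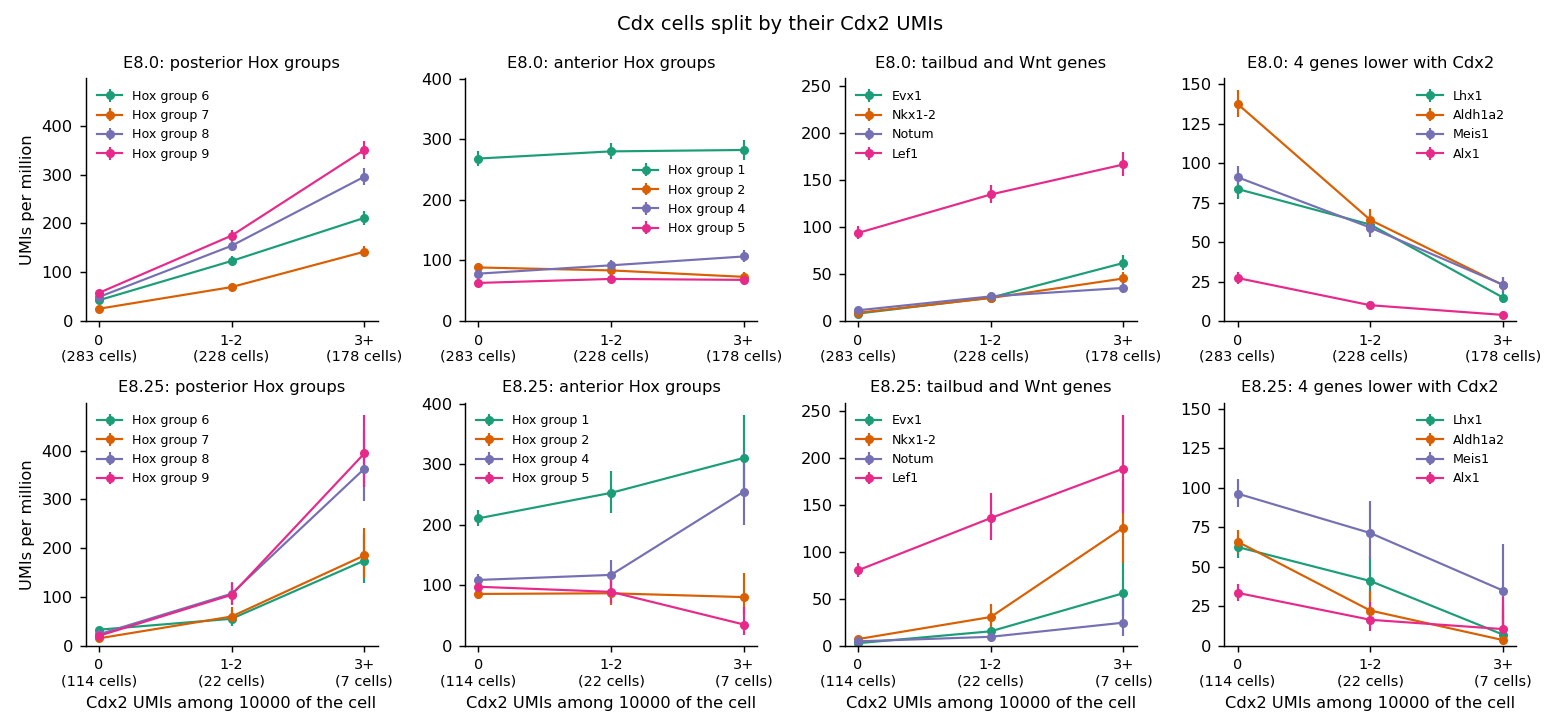
Selected cells at E8.0 (upper row) and E8.25 (lower row) split by Cdx2 UMIs among 10000 UMIs of the cell (0, 1 or 2, 3 or more, with the number of cells), against CPM of posterior Hox groups, anterior Hox groups, tailbud and Wnt genes, and 4 genes that were lower with Cdx2; bars are 95% exact Poisson intervals. Hox groups 6 to 9, Evx1, Nkx1-2, Notum and Lef1 climb from left to right and Lhx1, Aldh1a2, Meis1 and Alx1 descend, with wide intervals in the 7 cells of the last class at E8.25.

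The choice between Cdx1 and Cdx4 in the raw counts gave a like division. At E8.0, 224 selected cells had Cdx1 and no Cdx4, 71 had Cdx4 and no Cdx1, and 481 had both. The Hox group 9 sum was at 16.7, 263 and 230 CPM in them. Lhx1 was at 109, 8.20 and 43.0, and Phlda2 at 765, 2709 and 1426. At E8.25, 101 cells had Cdx1 alone, 1 had Cdx4 alone and 41 had both, and the group 9 sum was at 6.50 in the Cdx1 cells and 156 in the cells with both.

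Between the stages, 5378 genes had 20 or more CPM in selected cells at E8.0 or E8.25. Of these, 73 (1.36%) were 2-fold or more higher at E8.25 and 95 (1.77%) were 2-fold or more lower. The median log2 ratio was 0.01. Most of these differences were not particular to the selected cells: 38 of the 73 (52.1%) and 72 of the 95 (75.8%) were at least 2-fold in the same direction in the other cells.

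The 10 genes with the largest excess at E8.25 included Hbb-y, Hba-a1, Gm29666, Rrm2b, Pbld2, Gm3839, Hba-x, Hbb-bh1 and Rps2-ps6. In selected cells Hbb-bh1 was at 213 CPM at E8.0 and 2065 at E8.25, and at 1685 without the 1 erythroid-gated selected cell. Hbb-bh1 was detected in 100% of thinned selected cells, of other cells and of erythroid-gated cells at E8.25, at 42663.6 CPM in the last, so its detection in selected cells is not read as expression. Gm29666, Gm3839 and Rps2-ps6 had a like difference in the other cells, with log2 ratios of 3.98 and 3.97 for Gm29666 in selected and other cells, and as pseudogenes or unnamed loci they may share reads with near-identical copies.

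Genes with a known role in mesoderm were among the rest of the 73. Crabp2, a retinoic acid-binding protein gene, was at 34.4 CPM (31.8 to 37.2) at E8.0 and 148 (138 to 158) at E8.25, a log2 ratio of 2.07 against 1.16 in other cells. Lix1, a gene of limb and visceral mesenchyme, was at 20.8 and 83.7, and its log2 ratio in other cells was 1.32. Tbx5, the forelimb and cardiac T-box gene, was under the limit for comparison, at 3.29 (2.51 to 4.24) and 15.3 (12.4 to 18.7). Of 5 cardiomyocyte genes compared, 4 were 2-fold or more higher at E8.25, where 2 cardiomyocyte-gated cells were among the 143: the sum of the list was 95.8 at E8.0 and 201 at E8.25, and 87.0 and 87.5 without the gated cells.

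The 10 genes with the largest deficit at E8.25 were Nodal, Lefty2, Rpl7a-ps3, Gm5611, Gm6133, Pou5f1, Gm9844, Pitx1, Unc5b and Gm13075. Nodal, the ligand that sets left identity in lateral plate mesoderm, was at 33.9 CPM (31.3 to 36.7) in selected cells at E8.0 and had no UMI at E8.25 (up to 0.595), against 9.17 and 0.0192 in other cells. Lefty2, its secreted inhibitor, was at 130 (124 to 135) and 3.55 (2.22 to 5.37), against 78.0 and 2.10. At E8.0, 145 of 689 thinned selected cells (21.0%, 18.1 to 24.3%) had 3 or more UMIs of Lefty2 plus Nodal, against 6.55% of other cells, and 0 of 143 did at E8.25, which allows up to 2.55%. This cut on Lefty2 plus Nodal was made after their values were seen.

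Pou5f1, the pluripotency factor that persists in the posterior embryo, was at 38.5 CPM (35.7 to 41.5) at E8.0 and 3.06 at E8.25, against 12.02 and 0.923 in other cells. Pitx1, a hindlimb and posterior mesoderm homeobox gene, was at 51.6 and 5.81, against 60.1 and 4.51. Of 18 Hox genes compared between stages, 8 were 2-fold or more lower at E8.25 (Hoxa7, Hoxa9, Hoxb6, Hoxb8, Hoxc6, Hoxc8, Hoxc9 and Hoxd9) and 0 higher, with a median log2 ratio of -0.67 in selected cells and -1.37 in other cells. A gene could enter through 1 stage alone, as Hoxa9, Hoxc8 and Hoxd9 did through E8.0 and Hoxc4 through E8.25. The count is therefore in part set by the limit, and Hoxc5, higher at E8.25, was under it at both stages. Cdx2 and Cdx4 had log2 ratios of -1.89 and -2.50 in selected cells and of -4.39 and -4.25 in other cells. Cited1 had -1.72 and -0.91. Notum, Wnt5a, Hand1 and Hes1 were also 2-fold or more lower in selected cells.

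**Figure D5:**
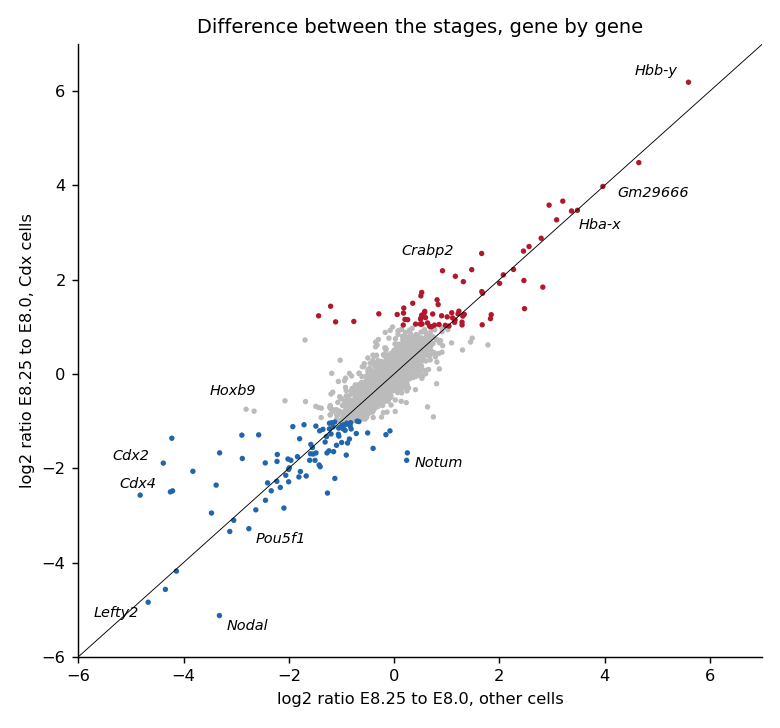
Each point is 1 of the 5378 genes compared between the stages, placed by its log2 ratio of E8.25 to E8.0 in other cells (horizontal) and in selected cells (vertical), with the line of equality. Red marks the 73 genes higher and blue the 95 lower by 2-fold or more in selected cells; haemoglobin genes and Lefty2 lie near the line, while Cdx2, Cdx4 and Hoxb9 lie above it and Nodal and Notum below it.

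The same rule was applied to the later libraries for comparison. It was met by 16 of 4052 cells at E9.5 (0.395%, 0.226 to 0.640%) and by 7 of 8042 at E10.5 (0.0870%, 0.0350 to 0.179%), of which 13 and 6 had exactly 2 UMIs. All of these UMIs were of Cdx1, with 0 UMIs of Cdx2 and Cdx4 in any retained cell of either library. The later tissue was the pharyngeal apparatus and heart, so stage and dissected region cannot be told apart.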

How the data were processed

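Single-cell suspensions were run with the 10x Chromium 3′ kit, version 2, and per the labels and submitters' notes the authors made the tables with Cell Ranger 3.1.0 on mm10. The deposited values were raw UMI counts per gene and cell for 27998 genes, 1 matrix per library. Cells with 1000 or more genes and at most 10% mitochondrial UMIs were retained (4, 2, 3 and 28 cells were removed, by stage). UMIs were summed over selected cells and over other cells of each library and given as CPM, and log2 ratios carried a pseudocount of 1. A gene was compared at 20 CPM and called at 2-fold. Intervals were exact Poisson or Clopper-Pearson and cover counting error only. For shares of cells with a transcript, each cell was thinned to 10000 UMIs, leaving out 952 and 25 shallower cells (87 and 0 of them selected). Doublets were kept; as an alternative, 459 and 70 cells with the highest Scrublet scores were removed (scanpy 1.11.5; 42 and 8 selected cells). The named genes were the list genes, the 15 highest and 15 lowest ratios shared by both libraries, and the 10 largest stage ratios each way. Some genes counted in these lists are not reported here by name. The rule, gene lists and named-gene rule were chosen with earlier results of these data known. The calling step was tested on simulated data. Python 3.11.15, numpy 2.4.6, scipy 1.17.1 and pandas 2.3.3 were used.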

Additional observations from a re-analysis of the deposited data

Results flagged for a closer look

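Cdx1 was also found in the later libraries, which were outside the comparisons above: 118 UMIs at E9.5 (1.58 CPM over all retained cells) and 130 UMIs at E10.5 (0.911 CPM). A count of 0 would allow up to 3. Cdx2 and Cdx4 had no UMI in either library.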

How the results depend on the processing

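No paired analysis was possible because each stage has 1 library. Doublet removal and the absence of a cell filter left the shares of selected cells within their intervals. A threshold of 1 UMI gave 15.97% and 8.67% at E8.0 and E8.25, a threshold of 3 gave 8.63% and 3.32% with a log2 ratio of -1.38, and thinning gave 9.43% and 1.74% with a log2 ratio of -2.44. With no minimum level, 110 genes were higher and 278 lower in selected cells, and 277 were higher and 345 lower at E8.25; with a pseudocount of 10 these counts were 23, 36, 39 and 63. Under the other alternatives each count stayed within 1.5 times the value reported. Of 380 single-gene log2 ratios under alternatives, 252 moved by at most their counting error, 122 moved with the same sign, and 6 reversed: with erythroid-gated, Cdh5-positive and cardiomyocyte-gated cells left out of the other cells, the E8.25 ratio was 0.18 for Hbb-y, 0.64 for Hba-x, 0.81 for Hba-a1, 0.55 for Hbb-bh1, 0.52 for Chchd10 and 0.66 for Cited4, in which the removal of those cells is the only change. Alternatives added after seeing the data differed between the comparisons. For selected against other cells, they left out Tbx4-positive Cdx cells, gated selected cells, or the cell state that had few UMIs at E8.0. These gave between 38 and 41 genes higher and 61 and 72 lower in selected cells. For the stages, they left out gated selected cells, that cell state, or Cdx2-positive selected cells. These gave between 61 and 74 genes higher and 81 and 96 lower at E8.25. The depth limits single cells: at 10000 UMIs, 59 of 689 selected cells at E8.0 and 40 of 143 at E8.25 showed no Cdx transcript.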
